A study of Mus musculus with 7 samples.

Results

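The cell-surface receptors that read epidermal growth factor (EGF) and fibroblast growth factors (FGFs) were followed in adult mouse dentate gyrus (DG), the hippocampal region that keeps making granule neurons in adult life, and in neural stem and progenitor cells (NSPCs) grown from it. The receptors were a list of 9 genes chosen by name: Egfr, Erbb2, Erbb3 and Erbb4 of the EGF receptor family, Fgfr1, Fgfr2, Fgfr3 and Fgfr4 of the FGF receptor family, and the related gene Fgfrl1. All 9 were among the 50600 entries of the bulk gene table, and 7 of them were among the 15536 genes of the single-cell table, where Erbb3 and Fgfr4 were not analysed.

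All mice were of strain C57Bl6J with no transgene or deletion named in the labels. Bulk RNA was sequenced from 4 separate NSPC cultures, 2 female (F1 and F2) and 2 male (M1 and M2), started from mice of 6 to 8 weeks and harvested at passages 6 to 15, and from whole DG of 1 female (F1) and 1 male (M2) mouse of 7 to 9 weeks. Every culture grew attached to poly-d-lysine and laminin in serum-free Neurobasal A medium with B27 without vitamin A, EGF at 20 ng/ml and FGF2 (basic FGF) at 20 ng/ml, so no culture without these ligands was measured. A single-cell library held cells of 3 cultures (2 female, 1 male; mice of 6 to 9 weeks, the same medium), pooled before sequencing, so it counts as 1 sample. The culture libraries were made with a SMART-Seq HT kit and the whole DG libraries with a NEBNext Ultra II Directional kit, so in every difference between these groups the kit and the group cannot be told apart. RNA integrity was given as the top of its scale for cultures and only as above a lower bound for tissue, which also follows the groups.

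As background, EGF receptor family members are tyrosine kinases that work in pairs. Egfr binds EGF, TGF-alpha, amphiregulin and HB-EGF, Erbb2 binds no known ligand and serves as the partner of the others, Erbb3 has a weak kinase and binds neuregulins, and Erbb4 binds neuregulins and some EGF-like ligands. FGF receptors bind FGFs together with heparan sulfate, and Fgfrl1 resembles them outside the cell but lacks the kinase. Both families feed the Ras and ERK pathway, and EGF and FGF2 are the usual mitogens for neural stem cells in culture.

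Library totals in the deposited table ranged from 9917697 to 11747408 counts in the cultures and were 16676618 and 17351636 in whole DG. Levels are given as counts per 1000000 counts of a library after TMM scaling (CPM), as mean ± SD with n = 4 cultures and n = 2 whole DG libraries. Differences are on the log2 scale, cultures minus whole DG, with their standard error (SE) and Benjamini-Hochberg adjusted p over all 18088 genes tested with the edgeR quasi-likelihood test, called at 0.05. Of the neural stem and progenitor markers, Nes (1216 against 9.74 CPM), Vim (1191 against 29.2 CPM), Fabp7 and Slc1a3 were higher in cultures, and Sox2 was lower (6.11 against 36.3 CPM). Sox2 was detected in 47.7% of the cultured single cells. Markers of mature neurons summed to 34.3 to 44.7 CPM in cultures against 8332 and 8841 CPM in whole DG. Of these sums Prox1, which progenitors of the DG also express, gave 26.4 to 32.6 CPM in cultures and 348 and 376 CPM in whole DG. Whole DG is a mixture of cell types, and in bulk RNA fewer cells of a type and less RNA per cell cannot be told apart.

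The start-site windows of the 3 EGF receptor family genes that moved farthest between the groups and had a window in the RefSeq table are shown because Egfr and Erbb2 rose together while Erbb4 fell. The table (RefSeq, GRCm38.p6) matched 7 receptors with 8 windows of 300 bases, from 250 bases before to 50 after an annotated start: Egfr, Erbb2, Erbb4, Fgfr2, Fgfr3, Fgfr4 and Fgfrl1. Erbb3 and Fgfr1 did not match. Capitals mark the GC box, GGGCGG or its reverse complement CCGCCC, the letters that Sp1-type factors recognise. Each sequence runs 5′ to 3′ on the gene's strand: Egfr at chr11:16751953-16752252 (plus strand), Erbb2 at chr11:98412234-98412533 (plus strand) and Erbb4 at chr1:69108010-69108309 (minus strand).
Egfr: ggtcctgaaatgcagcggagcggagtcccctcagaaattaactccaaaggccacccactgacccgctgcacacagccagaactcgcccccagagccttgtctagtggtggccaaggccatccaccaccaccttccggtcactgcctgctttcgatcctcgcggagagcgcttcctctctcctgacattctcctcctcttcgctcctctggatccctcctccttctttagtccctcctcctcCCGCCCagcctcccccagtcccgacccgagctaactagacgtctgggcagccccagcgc
Erbb2: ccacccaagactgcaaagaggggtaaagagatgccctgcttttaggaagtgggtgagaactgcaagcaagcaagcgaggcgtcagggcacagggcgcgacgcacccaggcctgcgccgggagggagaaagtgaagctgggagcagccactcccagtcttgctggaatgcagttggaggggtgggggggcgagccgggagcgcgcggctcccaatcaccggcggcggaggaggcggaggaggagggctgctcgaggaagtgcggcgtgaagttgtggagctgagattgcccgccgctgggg
Erbb4: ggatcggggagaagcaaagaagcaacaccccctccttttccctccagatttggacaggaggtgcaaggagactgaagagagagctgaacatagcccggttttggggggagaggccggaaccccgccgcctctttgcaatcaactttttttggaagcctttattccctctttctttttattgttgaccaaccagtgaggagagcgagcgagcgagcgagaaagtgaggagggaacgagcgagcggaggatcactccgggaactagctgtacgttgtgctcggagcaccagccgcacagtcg
The Egfr window held 1 GC box, shortly before the start site, and the Erbb2 and Erbb4 windows held none. The G+C share was 62.3% in Egfr, 66.0% in Erbb2 and 55.3% in Erbb4, against a median of 52.7% over all 32851 windows of the table. The GC box (both strands) was found in 5 of the 8 receptor windows and in 35.7% of all windows. The TATA box letters TATAAA were in 0 of 8 and in 13.6% of all, and the CCAAT box letters CCAAT were in 3 of 8, Erbb2 among them, and in 37.4% of all. These matches describe letters and not bound sites.

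Between cultures and whole DG, Egfr, Erbb2 and Fgfr1 were higher in cultures and Erbb3 and Erbb4 were lower. Fgfr2, Fgfr3 and Fgfrl1 did not pass the test, and Fgfr4 was too low to be tested. Thus 5 of the 8 tested receptors were called, where 77.3% of all 18088 tested genes were called in either direction. The 3 higher receptors stand beside 35.6% of all genes called higher, and the 2 lower receptors beside 41.7% called lower. When only folds above 2 were tested, the same number of receptors, 5, was called, beside 52.2% of all genes. The median log2 difference was -0.19 over the 8 tested receptors and -0.13 over all genes tested.

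**Figure D1:**
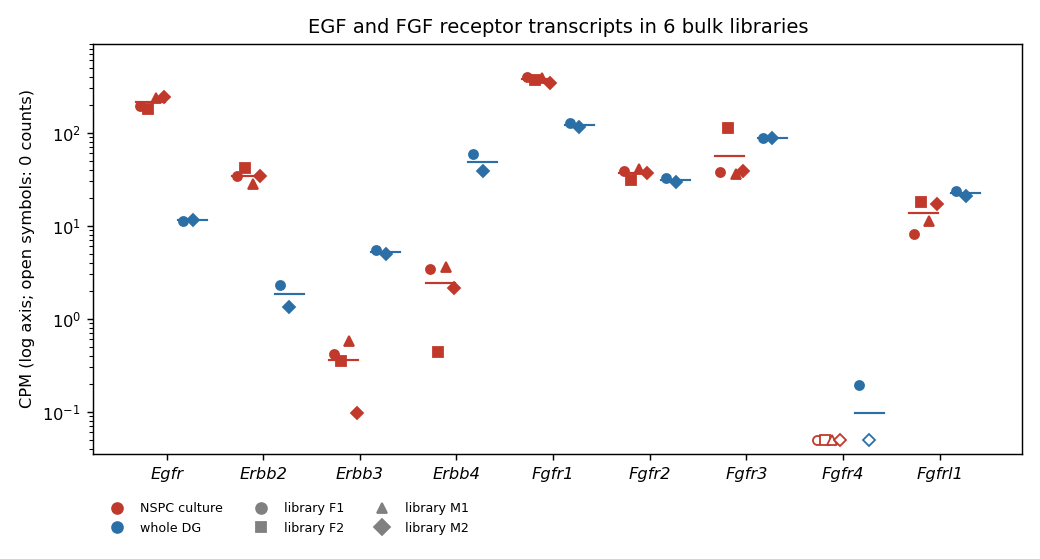
CPM (log axis) of the 9 receptors in the 4 NSPC cultures (red) and the 2 whole DG libraries (blue), one symbol per library, with horizontal lines at group means and open symbols at 0 counts. Egfr, Erbb2 and Fgfr1 lie higher in every culture than in both whole DG libraries, Erbb3 and Erbb4 lie lower in every culture, and Fgfr3 of culture F2 (113 CPM) stands apart from the other cultures (36.2 to 39.0 CPM).

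Egfr, the receptor of the EGF in the medium, was far higher in the cultures than in the tissue. It lies on mouse chromosome 11 from 16752203 to 16918158 (GRCm38, plus strand), with no exon shared with another gene. Its level was 194 CPM in F1, 181 in F2, 236 in M1 and 243 in M2, against 11.3 and 11.6 CPM in the female and male whole DG. The groups did not overlap, and the whole DG pair was nearly equal. The means were 213 ± 30.9 against 11.5 ± 0.226 CPM, a log2 difference of 4.22 (SE 0.20, adjusted p = 5.59e-07 by edgeR), or 18.6-fold. The difference lay between 4.12 and 4.62 in all 16 alternative analyses and was called in each.

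Erbb2, the ligandless partner of Egfr, was also higher in the cultures by a like amount. Its gene lies on chromosome 11 from 98412470 to 98437716 (plus strand). It was at 34.1, 41.3, 28.3 and 34.4 CPM in cultures F1, F2, M1 and M2 and at 2.32 and 1.34 CPM in the female and male whole DG, which rest on 36 and 22 counts. Every culture was above both tissue libraries. The means were 34.5 ± 5.31 against 1.83 ± 0.697 CPM, a log2 difference of 4.24 (SE 0.30, adjusted p = 5.11e-06 by edgeR), which became 4.97 when trends with gene length and GC content were removed. An exon of Erbb2 overlaps Mien1 on the other strand, and whether the authors' counting used strand is not stated in the sources here. Mien1 was at 44.0 to 48.9 CPM in cultures and at 35.5 and 39.6 CPM in whole DG.

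Erbb3 and Erbb4, the neuregulin receptors, were both lower in the cultures. Erbb3 (chromosome 10, 128567523 to 128589652, minus strand) had 5, 4, 6 and 1 counts in cultures F1, F2, M1 and M2 and 84 and 82 counts in whole DG. Its means were 0.358 ± 0.198 against 5.20 ± 0.308 CPM, a log2 difference of -3.82 (SE 0.47, adjusted p = 0.000111 by edgeR). The whole DG pair was nearly equal and every culture was below it, with 16 counts in all cultures together.

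Erbb4 (chromosome 1, 68032186 to 69108059, minus strand) was at 3.39, 0.433, 3.63 and 2.15 CPM in cultures F1, F2, M1 and M2 and at 59.1 and 38.6 CPM in the female and male whole DG. The groups did not overlap, although the cultures spread widely and F2, with 5 counts, was the lowest. The means were 2.40 ± 1.46 against 48.9 ± 14.5 CPM, a log2 difference of -4.35 (SE 0.52, adjusted p = 0.000101 by edgeR), and -3.98 (adjusted p = 6.90e-06) without F2. In the adult hippocampus Erbb4 is known as a gene of inhibitory interneurons, and Erbb3 as a gene of the oligodendrocyte lineage. The 6 interneuron markers (Gad1, Gad2, Slc32a1, Pvalb, Sst, Vip) summed to 5.04 to 7.61 CPM in cultures, with Slc32a1 and Sst at 0 counts in every culture, against 724 and 776 CPM in whole DG, and all 6 were called lower. The 6 myelin markers summed to 93.2 to 144 CPM against 1244 and 1529.9 CPM, with 5 of 6 lower. The 6 oligodendrocyte precursor markers went both ways: their sum was 1738 to 3535 CPM in cultures against 229 and 253 CPM, with Olig1 and Cspg4 higher, Olig2 not called, and Pdgfra, Gpr17 and Sox10 lower, Sox10 at 0 counts in every culture. Olig1 alone gave 1615.5 to 3286 CPM of the culture sum. Olig2 was at 24.9 against 21.6 CPM in bulk, while 86.0% of the cultured single cells held an Olig2 molecule. The part of these cell types in the Erbb3 and Erbb4 differences was not tested.

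Fgfr1, the main receptor of FGF2 in neural progenitors, had the highest mean level per summed exon length of the 9 receptors in both groups. In whole DG its range overlapped that of Fgfr3. Fgfr1 was higher in the cultures. It lies on chromosome 8 from 25513654 to 25575718 (plus strand). Its level was 399, 368, 388 and 344 CPM in cultures F1, F2, M1 and M2 against 128 and 115 CPM in the female and male whole DG. The cultures lay close together and all were above the tissue. The means were 375 ± 24.3 against 121 ± 9.09 CPM, a log2 difference of 1.63 (SE 0.13, adjusted p = 1.05e-05 by edgeR), or 3.09-fold, and 2.69 when length and GC trends were removed. Exons of Fgfr1 overlap the unnamed gene model Gm16159 on the other strand, which was at 17.1 to 18.6 against 3.77 and 3.81 CPM.

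Fgfr2, a receptor of several secreted FGFs, overlapped between the groups. It lies on chromosome 7 from 130162451 to 133123350 (minus strand) in the annotation, a span that takes in exons of Ctbp2 on the same strand. Its level was 38.8, 30.8, 40.5 and 36.5 CPM in cultures F1, F2, M1 and M2 and 32.7 and 29.7 CPM in whole DG, ranges that overlap. The log2 difference of 0.23 (SE 0.16, adjusted p = 0.220 by edgeR) did not pass. It passed with upper quartile scaling (0.41, adjusted p = 0.0494 by edgeR) and with length and GC trends removed (0.81, adjusted p = 0.00212 by edgeR). Ctbp2 was at 65.6 to 96.0 CPM in cultures against 38.3 and 42.1 CPM, and the treatment of reads on shared exons is not stated in the sources here.

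Fgfr3, known in adult brain as a receptor of astrocytes and radial glia, differed between the cultures themselves. It lies on chromosome 5 from 33721674 to 33737068 (plus strand). Its level was 37.4 CPM in F1, 113 in F2, 36.2 in M1 and 39.0 in M2, against 86.7 and 87.1 CPM in whole DG. Culture F2 was above both tissue libraries and the other 3 cultures were below them. Over all libraries the log2 difference was -0.62 (SE 0.46, adjusted p = 0.243 by edgeR), and without F2 it was -1.20 (adjusted p = 6.65e-05). With length and GC trends removed its sign turned, to 0.26 (adjusted p = 0.615 by edgeR). The summed CPM of 6 astrocyte markers was 194, 531, 442 and 126 in F1, F2, M1 and M2 and 2811 and 3275 in whole DG, and Aldh1l1 alone gave 493 CPM of the sum in F2. Of these markers Aldh1l1 was higher in cultures than in whole DG and the other 5 were lower, and their part in the Fgfr3 value of F2 was not tested. G630022F23Rik, which overlaps Fgfr3 on the other strand, was at 1.49, 4.51, 1.72 and 2.15 CPM in F1, F2, M1 and M2 and at 7.23 and 8.76 CPM in whole DG.

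Fgfrl1 (chromosome 5, 108692382 to 108706924, plus strand), the receptor without a kinase, was at 8.10, 17.8, 11.3 and 17.3 CPM in cultures F1, F2, M1 and M2 and at 23.7 and 20.98 CPM in whole DG. Every culture was below both tissue libraries, but the spread of the cultures was wide. The log2 difference of -0.72 (SE 0.31, adjusted p = 0.0646 by edgeR) did not pass. It passed in 5 of the 16 alternatives, among them the removal of culture F2 (-0.87, adjusted p = 0.0299 by edgeR) and of culture M2 (-0.84, adjusted p = 0.0440 by edgeR). With length and GC trends removed it shrank to -0.18 (adjusted p = 0.606 by edgeR). Fgfr4 (chromosome 13, 55152640 to 55168759, plus strand) had 0 counts in every culture and 3 and 0 counts in the female and male whole DG. A count of 0 over the 4 cultures allows up to 3 counts, or 0.0676 CPM, and no fold is given. Intervals and floors cover counting error only.

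**Figure D2:**
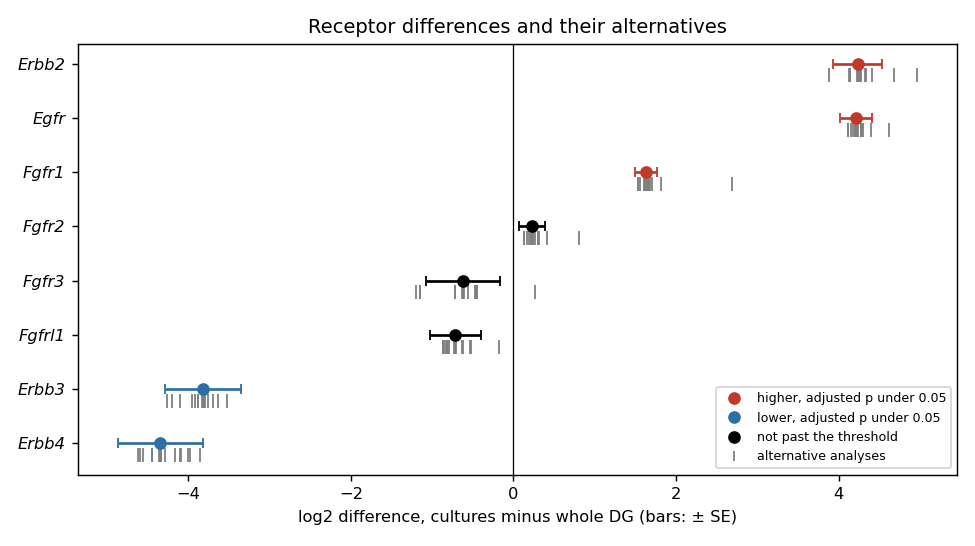
Log2 difference of the 8 tested receptors, cultures minus whole DG, with SE bars (dots) and the values of the 16 alternative analyses (grey ticks). Egfr and Erbb2 lie at 3.88 or more and Erbb3 and Erbb4 at -3.53 or less in all alternatives, while the ticks of Fgfr3 fall on both sides of 0, from -1.20 to 0.26.

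To compare receptors with each other, CPM were divided by the summed exon length of each gene in kilobases (CPM per kb). The order in the cultures was Fgfr1 (38.0 CPM per kb), Egfr (18.8), Fgfr3 (7.90), Erbb2 (6.63), Fgfrl1 (4.89), Fgfr2 (3.55), Erbb4 (0.194), Erbb3 (0.0595) and Fgfr4 (0). The ranges over cultures overlapped between Fgfr3 and Erbb2, between Erbb2 and Fgfrl1, between Fgfrl1 and Fgfr2 and between Erbb4 and Erbb3, so those neighbours are not ordered beyond their spread. In whole DG the order was Fgfr1 (12.3 CPM per kb), Fgfr3 (12.1), Fgfrl1 (8.03), Erbb4 (3.96), Fgfr2 (3.02), Egfr (1.01), Erbb3 (0.865), Erbb2 (0.351) and Fgfr4 (0.0273). Fgfr1 and Fgfr3 overlapped there, as did Erbb4 and Fgfr2. Egfr was thus the second in the cultures and the sixth in the tissue.

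The make-up of the EGF receptor family differed between the groups. Summed over its 4 members, the family was at 25.7 ± 2.12 CPM per kb in cultures and 6.18 ± 1.34 in whole DG. In cultures Egfr made up 73.2% of the sum and Erbb2 25.8%, with Erbb4 at 0.755% and Erbb3 at 0.231%. In whole DG Erbb4 made up 64.0%, Egfr 16.4%, Erbb3 14.0% and Erbb2 5.68%. The FGF receptors Fgfr1 to Fgfr4 summed to 49.4 ± 5.09 CPM per kb in cultures and 27.5 ± 1.12 in whole DG. Fgfr1 was 76.8% of that sum in cultures and 44.7% in whole DG, Fgfr3 15.99% and 44.2%, and Fgfr2 7.18% and 11.01%. The Fgfr3 share in cultures was raised by F2, where Fgfr3 was at 15.9 CPM per kb, against 5.06 to 5.45 in the other cultures. The members of a family share each library's total, and no test was made of these shares. The single-cell library, described below, gave nearly equal levels of Erbb2 and Erbb4 in cultured cells.

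Female and male cultures were compared with the same test on the 4 cultures. None of the 7 receptors tested was called (edgeR, 0 of 7), and 0.0264% of 15140 genes tested were called, 4 genes in all. At an unadjusted p under 0.05 edgeR gave 1 receptor, Egfr, with a mean of 187 CPM in females and 239.5 in males (female minus male log2 -0.36, adjusted p = 0.777 by edgeR), and DESeq2, another count test, gave 2, Egfr and Fgfr3, and called 0. Both male cultures were above both female cultures for Egfr. Fgfr3 had the largest difference, 1.00 (SE 0.49, adjusted p = 0.813 by edgeR), carried by culture F2. When culture F1 was left out, so that F2 was the only female, Fgfr3 was called (1.58, adjusted p = 0.0070 by edgeR). Erbb3 and Fgfr4 were too low to be tested for sex.

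Among the ligands of the EGF receptor family some were higher and some lower in cultures. Here and for the lists that follow, the counts stand beside 35.6% of all tested genes called higher and 41.7% called lower, and no list was tested against other genes. Of 11 genes 9 were tested, 4 were higher in cultures (Hbegf, Areg, Btc, Nrg4), 3 were lower (Tgfa, Nrg2, Nrg3) and Egf and Nrg1 were not called, with a median log2 difference of 0.26 against -0.13 over all genes. Hbegf, which encodes the Egfr and Erbb4 ligand HB-EGF, was at 98.4, 65.9, 62.4 and 47.0 CPM in cultures F1, F2, M1 and M2 and at 8.97 and 7.91 CPM in whole DG. All cultures were above the tissue, with a log2 difference of 3.02 (SE 0.32, adjusted p = 4.65e-05 by edgeR). Tgfa, the gene of the Egfr ligand TGF-alpha, was at 3.14, 1.21, 7.17 and 7.32 CPM in the cultures and at 56.2 and 64.6 CPM in whole DG, a log2 difference of -3.69 (SE 0.51, adjusted p = 0.000244 by edgeR). Nrg3, a neuregulin that binds Erbb4, had 0 counts in every culture and 43.7 ± 2.64 CPM in whole DG. Against a floor of 3 counts over the cultures it was at least 646-fold lower. Egf itself was low in both groups, at 0.903 ± 0.391 CPM in cultures and 1.53 ± 0.334 in whole DG.

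Of 22 FGF genes 11 were tested: Fgf1 was higher, 9 were lower (41.7% of all genes) and Fgf2 was not called, with a median log2 difference of -3.996. Of the 9 lower genes, Fgf11, Fgf12, Fgf13 and Fgf14 encode intracellular factors that do not activate FGF receptors. Fgf13, a regulator of neuronal sodium channels, was at 5.28 ± 1.72 CPM against 303 ± 15.3 (log2 -5.85, SE 0.25, adjusted p = 3.87e-07 by edgeR), and Fgf12 at 4.81 ± 1.90 against 72.9 ± 5.50 (log2 -3.93, adjusted p = 1.19e-05 by edgeR). The secreted ligands that were lower were Fgf5, Fgf9, Fgf10, Fgf18 and Fgf20. Fgf2, the ligand supplied as protein in the medium, was at 5.65 ± 1.42 CPM in cultures and 7.13 ± 0.320 in whole DG (log2 -0.34, SE 0.29, adjusted p = 0.314 by edgeR). Fgf1, which binds all FGF receptors, was at 46.3, 76.6, 120.1 and 92.4 CPM in cultures F1, F2, M1 and M2 and at 50.7 and 37.0 CPM in whole DG. The groups overlapped through F1, and the difference of 0.93 (SE 0.35, adjusted p = 0.0363 by edgeR) was not called in 10 of the 16 alternatives. The 4 alternatives that left out culture M1, culture M2, the female whole DG or the male whole DG were among them (adjusted p = 0.0646, 0.0642, 0.0694 and 0.214 by edgeR).

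Genes that act at the cell surface with the receptors were split. Of 15 heparan sulfate proteoglycans and FGF co-receptors, all tested, 5 were higher, 8 lower and 2 not called (35.6% and 41.7% of all genes were higher and lower; median log2 -1.43). Sdc2, a syndecan, was at 189.9 ± 65.1 CPM in cultures and 39.3 ± 2.10 in whole DG (log2 2.27, SE 0.32, adjusted p = 0.000255 by edgeR). Sdc3, the neuronal syndecan, was at 41.1 ± 13.2 against 232 ± 13.9 CPM (log2 -2.50, adjusted p = 4.95e-05 by edgeR), and its difference was -1.45 with length and GC trends removed. Gpc1, a glypican, was at 185 ± 61.5 against 127 ± 5.09 CPM and was not called (log2 0.54, adjusted p = 0.115 by edgeR), but passed without culture M1 (0.69, adjusted p = 0.0410), with upper quartile scaling (0.72, adjusted p = 0.0461) and with length and GC trends removed (1.504, adjusted p = 0.000897). Kl and Klb, the co-receptors of the endocrine FGFs, were among the lower genes.
The ligand sheddases, proteases and their regulators that release EGF-like ligands, gave 5 higher of the 5 tested among 6 (35.6% of all genes were higher), with a median log2 difference of 2.67. Rhbdf2, too low to be tested, had 0, 0, 0 and 1 counts in cultures F1, F2, M1 and M2 and 10 and 15 counts in the female and male whole DG. Adam17, which cleaves HB-EGF, TGF-alpha and amphiregulin, was at 109, 115, 119.8 and 114 CPM in the cultures and 14.6 and 14.2 CPM in whole DG (log2 2.99, SE 0.14, adjusted p = 4.98e-07 by edgeR). Adam10 was at 296 ± 43.1 against 92.6 ± 6.11 CPM (log2 1.68) and Adam9 at 219 ± 18.98 against 56.5 ± 1.36 CPM (log2 1.96), both called.

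Inside the cell, of 14 receptor adaptors 4 were higher (Shc1, Gab1, Gab2, Crkl), 8 lower and 2 not called (median log2 -1.24), beside 35.6% of all genes higher and 41.7% lower. Ptpn11, which encodes the phosphatase SHP2, was at 136 ± 16.6 against 203 ± 10.4 CPM (log2 -0.57, SE 0.14, adjusted p = 0.00567 by edgeR), a call that was lost without the female whole DG (adjusted p = 0.0552 by edgeR) and with length and GC trends removed (-0.28, adjusted p = 0.114). The adaptor Crk did not pass (166 against 192 CPM, log2 -0.21, adjusted p = 0.274 by edgeR), but passed with length and GC trends removed (-0.60, adjusted p = 0.00444) and when only F1 and M2 of each group were used (-0.34, adjusted p = 0.0474). Grb2, the adaptor that links both receptor families to Ras, was at 13.9 ± 2.79 against 168 ± 9.22 CPM (log2 -3.59, adjusted p = 8.14e-07 by edgeR), while 18.4% of the cultured single cells held a Grb2 molecule.
Of 14 inhibitors and turnover genes 13 were tested (all but Spry3), 3 were higher (Lrig1, Spry1, Spry4), 7 lower (41.7% of all genes) and 3 not called (median log2 -1.22). Spry4, an inhibitor that the ERK pathway itself induces, was at 544, 593, 400.5 and 433 CPM in cultures F1, F2, M1 and M2 and at 16.7 and 15.6 CPM in whole DG (log2 4.93, SE 0.24, adjusted p = 6.49e-07 by edgeR). The related Spred1 and Spred2 went the other way, at 23.4 against 157 CPM (log2 -2.75) and 8.94 against 119.5 CPM (log2 -3.74), both called. Of the cultured single cells, however, 28.3% held a Spred1 molecule and 8.96% a Spred2 molecule, beside 24.7% for Spry4.
Of 10 ERK target genes 8 were higher (35.6% of all genes), 0 lower, and Dusp5 and Fosl1 were not called (median log2 1.92). Every culture was nevertheless below both tissue libraries for Dusp5 (log2 -1.75) and for Fosl1 (log2 -0.75). Dusp6, an ERK phosphatase, was at 1098, 1104, 1032 and 1080.5 CPM in the cultures and 28.0 and 28.3 CPM in whole DG (log2 5.26, SE 0.15, adjusted p = 8.03e-08 by edgeR). The transcription factor gene Etv5 was at 1362, 1529, 1535 and 1711 CPM against 47.6 and 40.0 CPM (log2 5.13, SE 0.19, adjusted p = 1.96e-07 by edgeR), and cyclin D1 (Ccnd1) at 931 ± 165 against 41.9 ± 6.90 CPM (log2 4.47). For each of these 3 genes every culture was far above both tissue libraries. Ccnd1 also depends on the cell cycle, and the part of dividing cells in it was not tested.

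**Figure D3:**
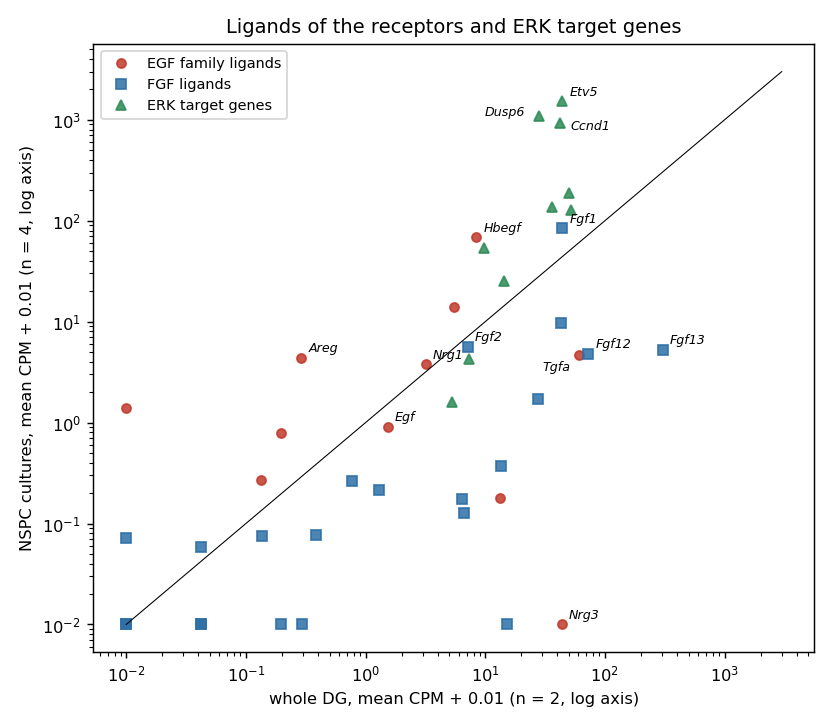
Mean CPM plus 0.01 in cultures (n = 4) against whole DG (n = 2), both axes logarithmic, for EGF family ligands, FGF ligands and ERK target genes, with the line of equal level. Most ERK targets lie above the line, Etv5 and Dusp6 by the widest margin, and 9 of the 11 tested FGF genes lie below it and were called lower.

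In the single-cell library the receptors were read as unique molecules (UMIs) from the 3′ ends of transcripts, which do not scale with gene length. It held 14912 cells with distinct barcodes and 2001 to 8531 UMIs each (median 4048.5) in 6 clusters named 0 to 5 by the authors. Fgfr1 had 91.2 UMIs per 1000000 (95% Poisson interval 88.8 to 93.6), Egfr 54.9 (53.1 to 56.7) and Fgfrl1 35.6 (34.1 to 37.1). Fgfr3 followed with 10.0 (9.23 to 10.8), Fgfr2 with 6.70 (6.07 to 7.37), Erbb2 with 3.00 (2.58 to 3.46) and Erbb4 with 2.95 (2.54 to 3.41). Fgfr1 and Egfr led here as they did per kb in the bulk cultures, whereas Fgfrl1 was the third here and the fifth there. Intervals of all neighbours in the single-cell order were apart except those of Erbb2 and Erbb4. In the bulk cultures, by contrast, Erbb2 (6.63 CPM per kb) was far above Erbb4 (0.194 CPM per kb). For comparison, the listed markers of neurons and interneurons gave from 0.0641 (Gad2) to 2.63 (Gad1, interval 2.24 to 3.06) UMIs per 1000000, apart from Prox1, which progenitors of the DG also express, at 12.9. The Erbb2 and Erbb4 levels lay above most of these markers, and their intervals overlapped that of Gad1.

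A minority of cells held a molecule of any 1 receptor. Fgfr1 was seen in 31.0% of cells (exact binomial interval 30.3 to 31.8), Egfr in 20.1%, Fgfrl1 in 13.5%, Fgfr3 in 3.98%, Fgfr2 in 2.71%, Erbb2 in 1.25% and Erbb4 in 1.2004%. The largest number of molecules in 1 cell was 5 for Egfr and for Fgfr1. For comparison, apart from Prox1 (5.23%), the neuronal and interneuron markers were seen in 0.0268% (Gad2) to 1.08% (Gad1) of the same cells. With every cell thinned to 2000 UMIs the shares were 16.5% for Fgfr1, 10.3% for Egfr and 6.75% for Fgfrl1, which shows how far these shares follow depth.

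Across clusters, Egfr and Fgfrl1 varied more than Fgfr1, and most receptors had their lowest value in cluster 5, often with intervals that overlapped those of other clusters. The clusters were made by the authors from these same cells and 1 library gives no replicates, so no test is given, and the intervals cover counting error only. Egfr was at 65.5 UMIs per 1000000 in cluster 0, 52.4 in 1, 47.2 in 2, 55.3 in 3, 66.7 in 4 and 32.2 in 5. Its cluster 5 interval (27.2 to 37.8) lay below those of all other clusters. Fgfr1 was at 98.7, 88.7, 86.5, 89.6, 100.2 and 76.8 UMIs per 1000000 in clusters 0 to 5, and its cluster 5 interval (69.0 to 85.3) overlapped those of clusters 1, 2 and 3.
Fgfrl1 was highest in clusters 0 (45.0) and 3 (44.7) and lower in 2 (34.1), 1 (30.7) and 4 (26.0). It was lowest in cluster 5 (21.2, interval 17.2 to 25.9), where the interval overlapped that of cluster 4 (22.5 to 29.9). Fgfr3 lay between 9.29 and 11.6 in clusters 0 to 4 and at 5.47 (3.54 to 8.08) in cluster 5, where the value after thinning was 8.24, so its low value there depends on that step. Fgfr2 was nearly flat, from 5.42 in cluster 2 to 7.68 in cluster 3, with overlapping intervals. Erbb4 was highest in cluster 4, at 6.06 (4.42 to 8.11) on 45 molecules, against 1.75 to 3.29 elsewhere, an interval above those of all other clusters that overlapped them after thinning (2.94 to 8.66). Its cluster 5 value (1.75, interval 0.756 to 3.45) rested on 8 molecules, and the interval overlapped those of clusters 0 to 3. Erbb2 was highest in cluster 3 at 4.70 (3.33 to 6.46), above the intervals of clusters 2 and 5, and lowest in cluster 5 at 1.53 (0.616 to 3.16), on 7 molecules. After thinning the Erbb2 interval of cluster 3 (2.79 to 7.45) overlapped those of clusters 2 and 5.

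The ratio of the highest to the lowest cluster was 2.07 for Egfr, 1.30 for Fgfr1 and 2.12 for Fgfrl1. For the sparser receptors it was 1.42 (Fgfr2), 2.12 (Fgfr3), 3.07 (Erbb2, 187 UMIs) and 3.46 (Erbb4, 184 UMIs). The median was 1.39 over the 6150 genes with at least 1000 UMIs. Of the receptors, Egfr, Fgfr1 and Fgfrl1 were themselves above that minimum, and ratios of sparse genes are wider through counting error alone. Of the 7 receptors 6 were lowest in cluster 5, all but Fgfr2, and 39.0% of the 6150 genes were lowest there. Cluster 5 was the smallest, with 1092 cells, and its median of 4086 UMIs per cell lay within the 3431 to 5270.5 of the other clusters.

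**Figure D4:**
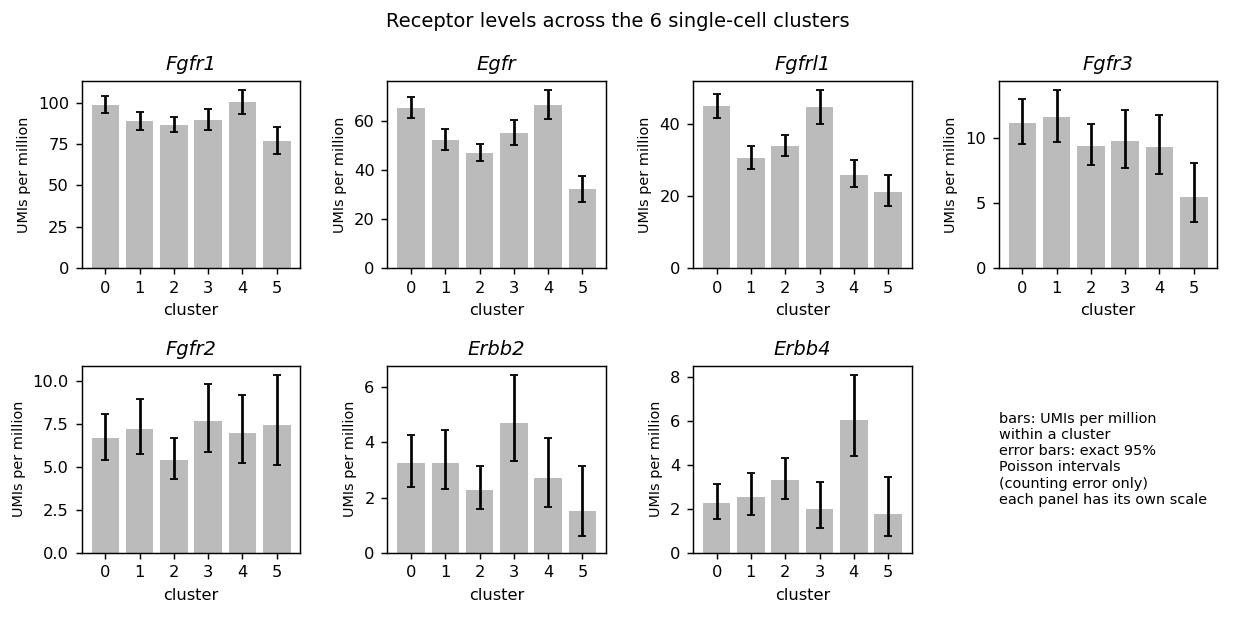
UMIs per 1000000 of 7 receptors in the 6 single-cell clusters of the pooled culture library, bars with exact 95% Poisson intervals, each panel on its own scale. Egfr and Fgfrl1 are lowest in cluster 5 (32.2 and 21.2), Fgfr1 is more even (76.8 to 100.2), and Erbb4 is highest in cluster 4 (6.06).

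Both receptor families were looked for in the same cells after thinning to 2000 UMIs. A member of the EGF receptor family was seen in 11.3% of cells, one of Fgfr1 to Fgfr3 in 19.4%, both in 2.39% and neither in 71.7%. Without thinning the shares were 21.9%, 35.4%, 8.56% and 51.3%, so most cells without a receptor molecule cannot be told from cells whose molecules were missed. Among the 1536 cells with an Egfr molecule 18.6% (16.7 to 20.7) held Fgfr1, and among the 13376 without it 16.3% (15.7 to 16.9), intervals that overlap slightly. In cluster 0 the shares were 23.7% (19.9 to 27.8) and 17.3% (16.05 to 18.6), and in the other 5 clusters the intervals overlapped. Cells are not replicates, and these intervals cover counting error within 1 library.

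Egfr and Fgfr1 had like profiles over the clusters. Among the 6150 genes, the one closest to Fgfr1 over the 6 clusters was Egfr itself (Pearson r 0.983 of log2 levels), followed by the kinase gene Map4k4 (0.976) and B4gat1 (0.975), with 20 genes at 0.95 or more. Closest to Egfr were Baz2b (0.995), Map4k4 (0.987) and Apc (0.984), with 34 genes at 0.95 or more. These are descriptions over 6 points from 1 library, in which clusters 0 and 4 are high and cluster 5 is low, and many unrelated genes reach such values.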

How the data were processed

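Raw counts per gene for the 6 bulk libraries are as deposited by the authors. Per the submitters' processing notes they come from CASAVA 1.8.2, HISAT2 2.0.6, Subread and featureCounts. The notes name assembly GRCh38, which is human, beside mouse symbols, and counting options are not stated in the sources here. For single cells the authors deposited natural log values (UMIs scaled to 10000 in a cell, plus 1), and cell names carry cluster numbers. Cell Ranger 3.1.0 and Seurat 3.1.0 stand in the submitters' processing notes, other versions in the labels' protocol.

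The bulk tests ran in edgeR 4.0.16 (R 4.3.3) with robust quasi-likelihood fits, TMM scaling, its standard filter for low counts and Benjamini-Hochberg adjustment over all genes tested (threshold 0.05). Group was the only term over all 6 libraries, and sex over the 4 cultures. The labels describe separate cultures, and a p-value here weighs a difference against the variation among those cultures and between the 2 mice of whole DG. DESeq2 1.42.0, other scalings and filters, libraries left out in turn, equal depth, a fold above 2 and removal of gene length and GC trends served as alternatives. UMIs were recovered from the natural log values, 100% of entries lying within 0.01 of a whole number. Cells were used as listed, without a filter or doublet removal and with no doublet caller. Poisson and Clopper-Pearson intervals are at 95%. Positions, exon lengths and overlaps come from GENCODE M21 (GRCm38), which matched 47583 of 50600 entries by symbol. The edgeR fits of both bulk comparisons, and not the other steps, were tested on simulated counts with known changes.

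The receptors, the 16 gene lists and the tests were chosen with earlier results of these data known. The naming rule took all 9 receptors, the 3 members of each other pathway list with the highest mean CPM in the higher group, and the 3 genes most like each of the 2 receptors with most UMIs. Genes named outside it (Areg, Btc, Nrg4, Nrg1, Nrg2, Egf, Fgf2 and other list members, single markers and genes overlapping a receptor) were named after their values were seen. The marker lists for endothelial and mural cells and for microglia summed to 0.976 to 3.55 and 9.27 to 16.0 CPM in cultures and to 122 to 141 and 217 to 224 CPM in whole DG. The libraries of both groups named F1 and M2 are not said to share an animal, so they were not treated as pairs. The deviation of F1 from M2 in cultures and in whole DG correlated with r = 0.0138 over 11001 genes. All mice were of the same strain, so this value cannot show whether an animal was shared. A marker gene of 1 list is not reported here.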

Additional observations from a re-analysis of the deposited data

Results flagged for a closer look

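Fgfr3 in culture F2, at 113 CPM, was the only value among 28 genes tested (the receptors and the named pathway genes) that lay far from the other cultures. The remaining 3 cultures lay between 36.2 and 39.0 CPM, and the gap of F2 to the nearest of them was 0.964 of the whole range of the 4 cultures, above Dixon's critical value for 4 values. Chance alone gives such a flag in about 1 of 20 groups. F2 also had the lowest Erbb4 level of the cultures (0.433 CPM). The cause was not tested.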

How the results depend on the processing

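Over 16 alternatives the number of receptors called between cultures and whole DG lay between 5 and 7, and 118 of the 128 log2 differences of single receptors kept their direction where called and their side of the threshold. Egfr, Erbb2, Erbb3, Erbb4 and Fgfr1 were called in all 16. The other 10 values belong to Fgfr2, Fgfr3 and Fgfrl1 and passed the threshold where the result as reported did not. Leaving out 1 culture at a time, the number of receptors called between the sexes lay between 0 and 1, the 1 being Fgfr3 without culture F1. With the replicate block on the 4 libraries named F1 or M2, 6 receptors were called, as without the block on the same libraries. The block added no call, and Fgfr3 was the receptor called there and not with all libraries (-1.15, edgeR adjusted p = 0.000556 with the block and 0.000199 without). Upper quartile scaling moved the median of all genes from -0.13 to 0.054 and DESeq2 size factors moved it to -0.23. Of 126 receptor levels by cluster 125 moved by less than their interval, the exception being Fgfr3 in cluster 5 (8.24 after thinning).

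Kit and group cannot be told apart, the whole DG group has 2 libraries, and no culture was measured without EGF and FGF2. Receptors with few counts (Erbb3 in cultures, Fgfr4) and few UMIs (Erbb2, Erbb4) are limited by depth, and the single-cell clusters have no replicates.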
